A study of Mus musculus with 4 samples.

Results

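The genes described here are the 10 that write, copy and remove DNA methylation: Dnmt1, Dnmt3a, Dnmt3b, Dnmt3l, Tet1, Tet2, Tet3, Uhrf1, Uhrf2 and Tdg. They were chosen by symbol, with earlier results of these data known, from the 36918 genes of a gene count table, and all 10 were found in it and passed the filter on low counts. The table came from ChAR-seq, sequencing of the RNA that stays with chromatin after the cytoplasm and nucleoplasm are washed away, so that much of the RNA is nascent and introns are counted. Mouse embryonic stem cells (mESCs) were grown in medium with serum, LIF and the inhibitors CHIR99021 and PD0325901. Their ZBTB21 genes carried a degron and GFP tag on both alleles, and ZBTB21 is a zinc finger transcription factor that the study examined for its part in cohesin binding. The line also carried OsTIR1, which works with a ubiquitin ligase to degrade the tagged protein. The 2 libraries labelled ZBTB21_degron_6h came from cells given 1 μg/ml doxycycline for 24 hours and then 500 μM IAA, the auxin that triggers loss of the tagged protein, for 6 hours. The 2 libraries labelled untreated carried the same tag, and whether they received doxycycline is not stated. The tagged line was therefore both control and treated material, no untagged cells were compared, and whether the replicates came from separate cultures is not stated. Loss of ZBTB21, IAA and any difference in doxycycline go together between the groups and cannot be told apart. The p-values then measure only the spread between these libraries, which may be technical.

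DNA methylation in mammals sits mainly on cytosines followed by guanine (CpG). DNMT3A and DNMT3B place it on unmethylated DNA, and DNMT3L, which has no catalytic activity of its own, binds and stimulates them. DNMT1 copies the marks after replication, guided by UHRF1, which recognises DNA methylated on the old strand only. The TET enzymes oxidise methylcytosine, and TDG cuts out the more oxidised bases so that repair can restore cytosine. Mouse embryonic stem cells are known for strong Dnmt3l and Tet1 expression, and for lower methylation when grown with inhibitors of MEK and glycogen synthase kinase.

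The libraries held 4262382 to 6479842 counts in genes, and 14361 genes were tested. Replicates of a group differed by more than counting error (chi-square of 1.3 for the untreated and 1.39 for the degron pair, per degree of freedom). The cell identity was checked with marker lists: 9 of 10 embryonic stem cell markers were tested and their summed level was 2534 and 2555 CPM (counts scaled to a common library size) in the untreated and 3175 and 3139 CPM in the degron libraries, with 6 genes higher and 2 lower. Over all tested genes 20.3% were higher and 19.8% lower at the threshold given below. Summed primitive endoderm markers were at 50.5 and 44.1 CPM in untreated and 33.9 and 29.6 CPM in degron libraries, with 2 of 4 tested genes lower. Fibroblast feeder markers summed to 5.47 to 10.99 CPM with Dcn at 0, neural markers to 22.5 to 25.4 CPM with Sox1 and Neurod1 at 0 and 1 of 2 tested genes lower, and mesoderm markers to 5.22 to 8.67 CPM with Mesp1 at 0. The part of these shifts in the results was not tested, and in bulk libraries fewer cells with a transcript and less of it per cell cannot be told apart. The Zbtb21 gene had 2, 0, 0 and 0 counts, and 99.9% of it lies inside another annotated gene on the same strand. The degron acts on the protein, so these counts are no check of the labels.

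The starts of the genes differ in the sequence the family acts on. Promoter windows from 250 bases before to 50 after each annotated start were taken from RefSeq (GRCm38.p6) for all 10 genes, 17 windows in all, and the median over 32817 windows of all genes was 7 CpG (quartiles 3 and 20). The 4 windows are shown because they belong to the gene that fell most, Dnmt3l, to its catalytic partner Dnmt3b, which also fell, and to Uhrf1, which rose. They lie at chr10:78042037-78042336 and chr10:78049592-78049891 for the first and second Dnmt3l start, chr2:153649199-153649498 for Dnmt3b and chr17:56304063-56304362 for the second Uhrf1 start, all on the plus strand, and each CpG is in capitals.
Dnmt3l, first start: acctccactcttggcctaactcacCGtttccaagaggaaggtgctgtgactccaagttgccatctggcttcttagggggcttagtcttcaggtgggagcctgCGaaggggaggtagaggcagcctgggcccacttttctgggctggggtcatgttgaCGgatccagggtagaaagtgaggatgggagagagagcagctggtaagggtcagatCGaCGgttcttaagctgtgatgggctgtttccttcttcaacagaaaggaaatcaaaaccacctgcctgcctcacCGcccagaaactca
Dnmt3l, second start: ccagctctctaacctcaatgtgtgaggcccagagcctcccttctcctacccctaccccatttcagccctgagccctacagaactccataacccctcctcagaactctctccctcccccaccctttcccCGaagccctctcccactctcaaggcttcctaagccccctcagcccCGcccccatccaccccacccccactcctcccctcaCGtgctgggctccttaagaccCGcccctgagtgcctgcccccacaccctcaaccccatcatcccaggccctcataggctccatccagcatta
Dnmt3b: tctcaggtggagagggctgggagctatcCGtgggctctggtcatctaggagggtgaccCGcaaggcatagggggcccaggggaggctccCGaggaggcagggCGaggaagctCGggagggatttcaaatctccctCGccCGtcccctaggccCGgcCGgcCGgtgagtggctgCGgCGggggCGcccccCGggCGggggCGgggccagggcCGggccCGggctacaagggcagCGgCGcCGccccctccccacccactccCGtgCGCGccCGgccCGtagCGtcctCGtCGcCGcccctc
Uhrf1, second start: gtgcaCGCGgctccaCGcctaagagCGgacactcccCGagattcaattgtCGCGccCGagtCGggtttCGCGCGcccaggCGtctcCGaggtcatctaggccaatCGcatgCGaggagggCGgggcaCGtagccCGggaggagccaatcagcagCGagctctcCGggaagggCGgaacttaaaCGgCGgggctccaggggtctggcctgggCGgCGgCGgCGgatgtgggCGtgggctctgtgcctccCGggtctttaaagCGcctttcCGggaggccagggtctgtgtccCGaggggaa

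Dnmt3l was the one gene with fewer CpG than the genome-wide median at all of its starts. Its 3 windows held 6, 4 and 3 CpG, and 43.6%, 31.4% and 23.3% of all windows held fewer. The Dnmt3b window held 30 CpG (88.3% of windows held fewer) and the second Uhrf1 window 33 (91.4%). The single Tet2 window held 57, a number that 99.8% of windows did not reach. Among the others, Tet1 had 17, Tet3 22, Tdg 26 and Uhrf2 28 CpG, the 3 Dnmt3a windows had 46, 47 and 18, the 3 Dnmt1 windows 33, 12 and 2, and the first Uhrf1 window 12.

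Several short motifs were searched on both strands after the values were known, so that matches are descriptions and not sites of binding. The GC box GGGCGG occurred in 35.6% of all windows, with 1 match in the first Dnmt3l window, 2 in the second and 4 in the Dnmt3b window. The E box CACGTG, found in 7.15% of all windows, had 1 match in the second Dnmt3l window and none in the first. ACGTG, which lies inside that E box and occurs in 19.6% of all windows, accordingly had 2 matches there, 1 on each strand. CCAAT, in 37.4% of all windows, matched in neither of these Dnmt3l windows and had 2 matches in the second Uhrf1 window. TGANTCA, in 7.81% of all windows, was in none of the 17.

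Of the 10 genes, 1 was higher in the degron libraries (Uhrf1) and 3 were lower (Dnmt3l, Dnmt3b and Tet1) at an adjusted p under 0.05 in edgeR's quasi-likelihood test, with p-values adjusted over all tested genes. That is 40.0% of the 10, against 40.2% of all tested genes called, 20.3% higher and 19.8% lower, so that the family as a whole was called no more often than genes at large. The median log2 fold change was -0.09 for the 10 genes and close to 0 (-0.000749) for all tested genes. Longer genes were on the whole lower in the degron libraries (Spearman's rho across tested genes -0.469, a description across genes), and each value was therefore also computed with the length trend removed. On that scale 28.1% of all genes were called (18.1% higher, 10.0% lower) and the 10 genes gave 4 higher (Dnmt1, Dnmt3a, Tet2 and Uhrf1) and 2 lower (Dnmt3l and Dnmt3b) with a median of 0.07. With DESeq2, 28.6% of the 10463 genes given an adjusted p were called (14.7% higher, 13.9% lower), and the same 4 of the 10 genes passed in the same directions.

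**Figure D1:**
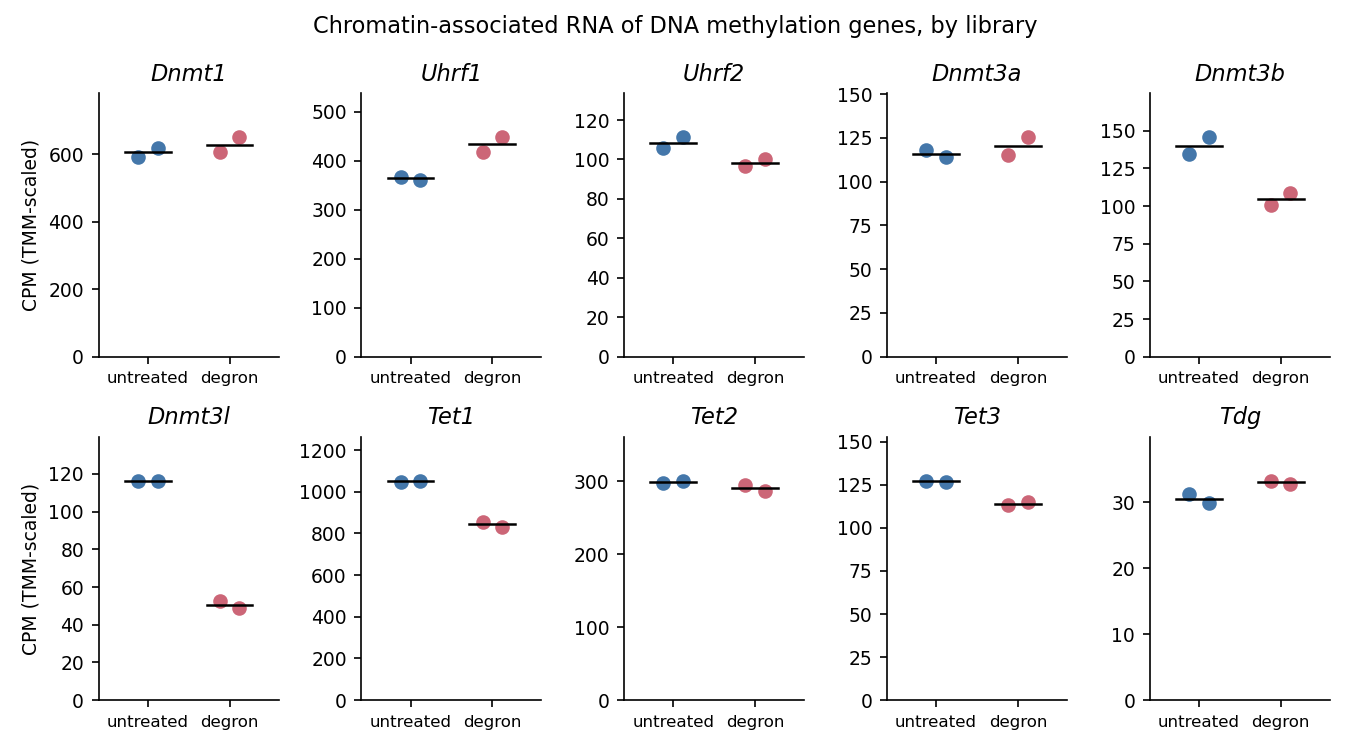
Level of each DNA methylation gene in CPM (y axis, from 0) in the 2 untreated and 2 degron libraries, with points for libraries and lines for group means. Dnmt3l went from 116 CPM in both untreated libraries to 52.4 and 48.8 CPM, and the groups overlapped for Dnmt1 and Dnmt3a.

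All values are relative to the other genes of a library. The gene spans hold mostly introns, with exons making up from 13.3% (Dnmt3b) to 25.6% (Tdg) of them.

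Among the maintenance genes, Uhrf1 rose and Dnmt1 did not pass the threshold. Dnmt1 (ENSMUSG00000004099, chr9:20907209-20959888, mm10, minus strand) was at 592 and 619 CPM in the untreated libraries and at 606 and 649 CPM in the degron libraries. The 2 groups overlapped. Its log2 fold change was 0.05 ± 0.05 (SE, n = 2 per group), with a 95% interval from -0.04 to 0.14 and an edgeR adjusted p of 0.394. With the length trend removed the value was 0.19 with an edgeR adjusted p of 0.00267, so that the call for Dnmt1 depended on that setting.

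Uhrf1 (ENSMUSG00000001228, chr17:56303321-56323486, plus strand), the guide of DNMT1 to replicated DNA, was at 367 and 362 CPM in untreated and 419 and 448 CPM in degron libraries. Both degron libraries were above both untreated ones. The log2 fold change was 0.25 ± 0.05 (95% interval 0.15 to 0.35, edgeR adjusted p = 0.000102), a 1.19-fold difference. It was 0.19 with the length trend removed (edgeR adjusted p = 0.0041) and passed under every alternative run. Its paralogue Uhrf2 (ENSMUSG00000024817, chr19:30030513-30093722, plus strand), which cannot replace UHRF1 in mouse embryonic stem cells, was at 106 and 111 CPM in untreated and 96.5 and 100.04 CPM in degron libraries. The Uhrf2 groups did not overlap, but the log2 fold change of -0.15 ± 0.08 had an interval from -0.30 to 0.01 and did not pass (edgeR adjusted p = 0.127). Its sign turned to 0.02 with the length trend removed. Uhrf1 made up 77.6% and 76.5% of the Uhrf counts in untreated and 81.3% and 81.8% in degron libraries. Wilson 95% intervals, which cover counting error only, reached from 74.6% to 79.3% in untreated and from 79.9% to 83.2% in degron libraries. Uhrf2 is the longer gene, at 63210 against 20166 bases, and the length trend was not removed from these shares.

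The de novo genes held the largest change of the family. Dnmt3l (ENSMUSG00000000730, chr10:78041947-78063622, plus strand), the cofactor without catalytic activity, had 550 and 490 counts in the untreated and 345 and 241 in the degron libraries, although the degron libraries were the deeper ones. In CPM these were 116 and 116 against 52.4 and 48.8. The untreated libraries were nearly equal, and both degron libraries lay far below them. The log2 fold change was -1.19 ± 0.08 (95% interval -1.36 to -1.02, edgeR adjusted p = 3.12e-15), or 0.437-fold (0.389 to 0.492). Only 1.16% of tested genes had a lower value, which placed Dnmt3l at position 168 from the lowest, and 312 genes in all were called lower with a log2 fold change of -1 or less. The value stayed between -1.25 and -1.14 under the 14 alternatives and was -1.24 with the length trend removed.

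Dnmt3b (ENSMUSG00000027478, chr2:153649450-153687730, plus strand), one of the catalytic partners of DNMT3L, was at 134 and 146 CPM in untreated and 101 and 109 CPM in degron libraries. Every degron value was below every untreated value. It fell by 0.42 on the log2 scale (SE 0.07, 95% interval -0.57 to -0.27, edgeR adjusted p = 1.06e-05), and by 0.36 with the length trend removed (edgeR adjusted p = 0.000155). Dnmt3a (ENSMUSG00000020661, chr12:3806007-3914443, plus strand), the other catalytic partner, was at 118 and 114 CPM in untreated and 115 and 125 CPM in degron libraries. The groups overlapped, and the log2 fold change of 0.05 ± 0.07 had an interval from -0.10 to 0.20 (edgeR adjusted p = 0.642). With the length trend removed it was 0.31 (edgeR adjusted p = 0.00102). Relative to genes of its full length of 108437 bases Dnmt3a was up, while its share of the library was not shown to move. A shorter unit from the annotated start at chr12:3891744 was not considered. Without degron replicate 2 the log2 fold change of Dnmt3a with TMM scaling was -0.0030.

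The balance within the de novo genes can be read from their counts in each library, where scaling between libraries has no part. The genes differ in length, at 21676 bases for Dnmt3l, 38281 for Dnmt3b and 108437 for Dnmt3a. The length trend was not removed from these shares or from any of the ratios. Dnmt3l made up 31.5% (Wilson 95% interval 29.4% to 33.8%) and 30.9% (28.7% to 33.2%) of the 3 genes' counts in the untreated libraries. It made up 19.5% (17.7% to 21.4%) and 17.2% (15.3% to 19.3%) in the degron libraries. Dnmt3a took the complement, at 32.0% and 30.3% in untreated against 43.0% and 44.3% in degron libraries, while Dnmt3b was at 36.5% and 38.7% against 37.5% and 38.5%, so that its groups overlapped. The log2 ratio of Dnmt3l to Dnmt3a counts was -0.02 and 0.03 in untreated and -1.14 and -1.36 in degron libraries, a difference of -1.25. The ratio of Dnmt3l to Dnmt3b differed by -0.78 and that of Dnmt3b to Dnmt3a by -0.47. These are 3 of 8 ratios computed, and in all 8 the groups did not overlap. The 8 ratios share genes with one another, and how often other gene pairs lack overlap was not computed, so that count is a description only. An exact two-sided permutation test with 2 libraries against 2 gives at best p = 0.333, which was the value for each ratio before and after Benjamini-Hochberg adjustment, so that the design cannot pass the threshold for a single ratio.

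**Figure D2:**
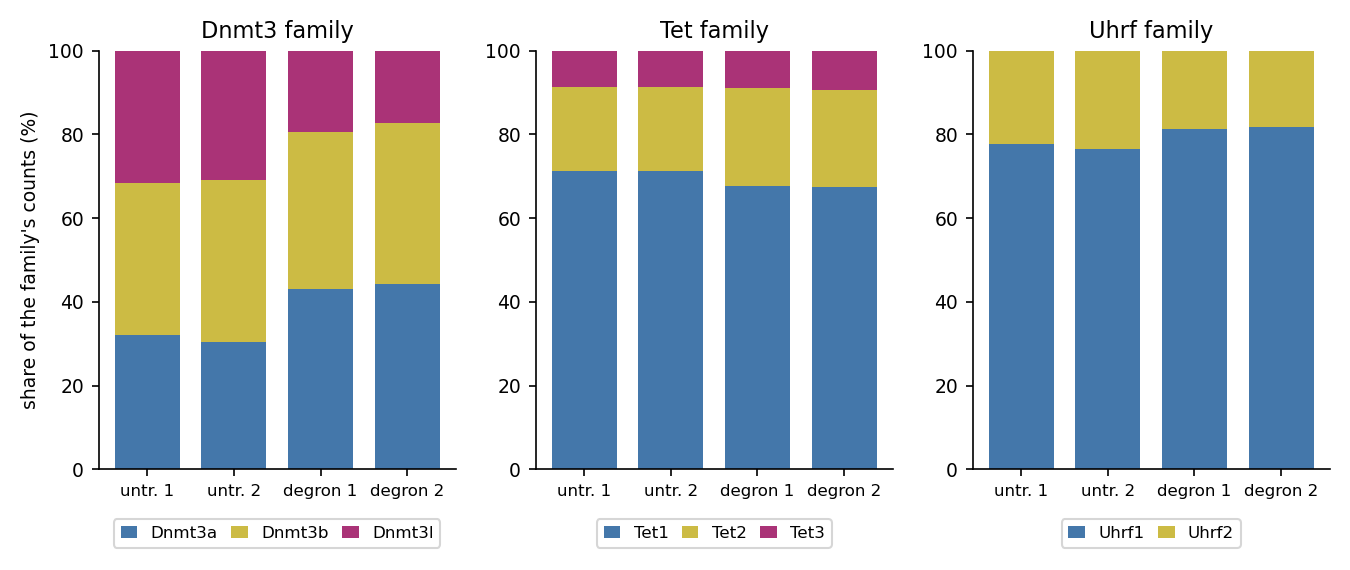
Share of a family's counts (y axis, percent) taken by each of its genes in each library (x axis, untr. for untreated). Dnmt3l took 31.5% and 30.9% of the Dnmt3 counts in untreated and 19.5% and 17.2% in degron libraries, and the shifts in the Tet and Uhrf families were smaller.

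Of the genes that act in removal of methylation, Tet1 was lower and the other 3 did not pass. Tet1 (ENSMUSG00000047146, chr10:62804570-62908996, minus strand), the most abundant TET enzyme here, had 4959 and 4438 counts in untreated and 5634 and 4114 in degron libraries. This corresponds to 1048 and 1053 CPM against 856 and 833 CPM, without overlap. It fell by 0.31 on the log2 scale (SE 0.04, 95% interval -0.40 to -0.23, edgeR adjusted p = 4.07e-08). The Tet1 gene is 104427 bases long, and with the length trend removed its log2 fold change was -0.06 with an edgeR adjusted p of 0.351. The lower level of Tet1 was therefore of the size found for genes of similar length, and the call rests on the scaling used.

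Tet2 (ENSMUSG00000040943, chr3:133463679-133545139, minus strand) was at 298 and 300.2 CPM in untreated and 295 and 286 CPM in degron libraries. These ranges did not overlap but lay close together, and the log2 fold change was -0.04 ± 0.05 with an interval from -0.15 to 0.07 (edgeR adjusted p = 0.591). With the length trend removed it was 0.18 (edgeR adjusted p = 0.0119). Tet3 (ENSMUSG00000034832, chr6:83362373-83459084, minus strand), the TET enzyme best known from the zygote, was at 127 and 127 CPM in untreated and 113 and 115 CPM in degron libraries. Its groups did not overlap, and the log2 fold change of -0.16 ± 0.07 (95% interval -0.30 to -0.01) had an edgeR adjusted p of 0.0797, which went to 0.0405 when only genes with a mean of at least 50 counts were tested. With the length trend removed Tet3 was at 0.09 (edgeR adjusted p = 0.385). Tet1 made up 71.1% and 71.1% of the Tet counts in untreated and 67.7% and 67.5% in degron libraries, and Tet2 20.2% and 20.3% against 23.3% and 23.2%. The log2 ratio of Tet1 to Tet2 counts went from 1.82 and 1.81 to 1.54 and 1.54, a difference of -0.27.

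Tdg (ENSMUSG00000034674, chr10:82629828-82650799, plus strand), the glycosylase downstream of the TET enzymes, had the fewest counts of the 10, with 148 and 126 in untreated and 219 and 162 in degron libraries. In CPM it was at 31.3 and 29.9 against 33.3 and 32.8, without overlap. Its log2 fold change of 0.11 ± 0.12 had the widest interval of the family, from -0.14 to 0.36 (edgeR adjusted p = 0.501), so that differences of either sign within it were not detectable at this depth. Near-identical copies could have drawn reads from some of these genes. The Tdg and Dnmt3l pseudogenes Tdg-ps and Dnmt3l-ps1 had 0 counts in every library, and Dnmt3a-ps1 had 2, 1, 5 and 3. All of Dnmt3l-ps1 (100%) is covered by other annotated genes on the same strand, so its 0 counts are no check. Only uniquely mapped reads were counted, so these counts do not show whether reads were lost to copies.

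**Figure D3:**
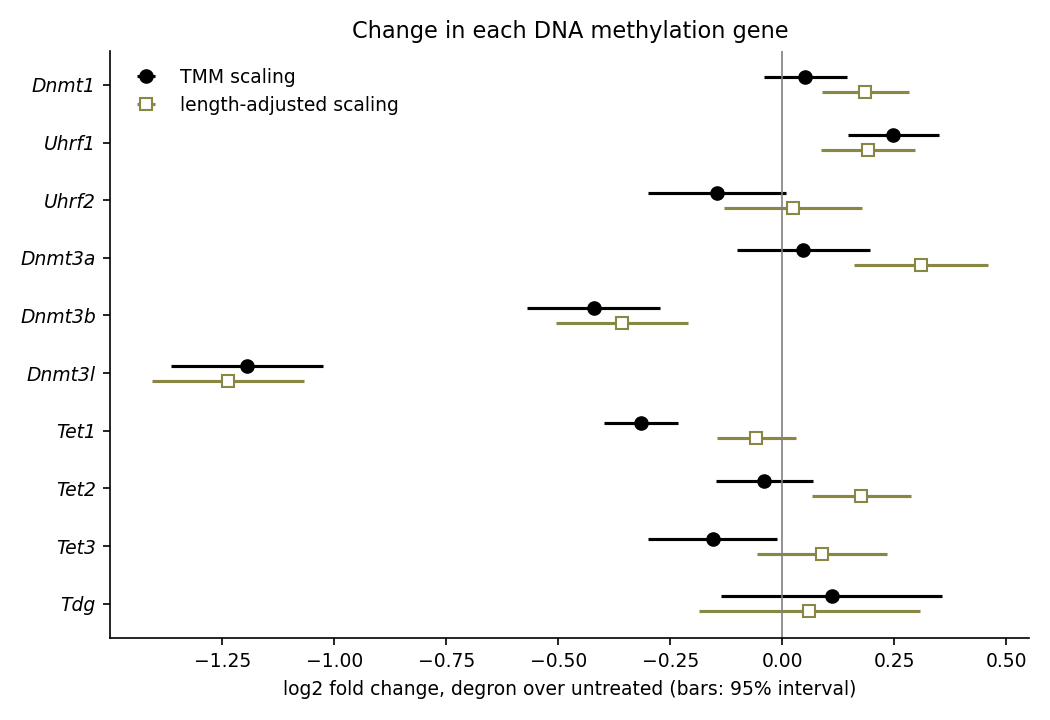
Log2 fold change of degron over untreated libraries (x axis) for each gene with its 95% interval, with TMM scaling (filled circles) and with the length trend removed (open squares). Dnmt3l (-1.19 and -1.24), Dnmt3b (-0.42 and -0.36) and Uhrf1 (0.25 and 0.19) stayed off 0 on both scales, and Tet1 (-0.31 and -0.06) did not.

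Levels can be compared between the genes only per length, and were expressed as CPM per kb of counted gene body, introns included. The whole annotated span was used, although Dnmt3a (chr12:3891744) and Dnmt3l (chr10:78049842) also have annotated starts inside it. Which starts were used was not tested, so the order below holds for full spans only. In untreated cells Uhrf1 was highest at 18.4 ± 0.205 CPM per kb (SD, n = 2), followed by Dnmt1 at 11.6 ± 0.365 and Tet1 at 10.1 ± 0.0279. Dnmt3l was next at 5.44 ± 0.0023, above both of its catalytic partners, Dnmt3b at 3.69 ± 0.208 and Dnmt3a, the lowest of the 10, at 1.07 ± 0.0255. Between them stood Tet2 at 3.68, Uhrf2 at 1.73, Tdg at 1.48 and Tet3 at 1.32 CPM per kb. Dnmt3b and Tet2 were the one pair of neighbours in this order whose ranges overlapped. In the degron libraries Dnmt3l was at 2.37 ± 0.119 CPM per kb, which placed it sixth, below Dnmt3b (2.76 ± 0.153) and Tet2 (3.58 ± 0.0766). The positions of Uhrf1, Dnmt1 and Tet1 as the first 3 and of Tet3 and Dnmt3a as the last 2 were the same in both groups.

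The tested genes next to Dnmt3l on either side were lower as well. The first RefSeq start of Dnmt3l lies inside Aire (ENSMUSG00000000731, chr10:78030022-78043610, minus strand), a regulator of self-antigen expression in the thymus, and the 2 genes overlap by 1664 bases, 7.68% of Dnmt3l. Aire had 233 and 198 counts in untreated and 32 and 24 in degron libraries, and its log2 fold change was -3.30 ± 0.17 (edgeR adjusted p = 1.3e-19). Whether the counting used strand is not stated, so reads in the shared stretch cannot be told apart. Dnmt3l held 70.2% and 71.2% of the counts of the pair in untreated and 91.5% and 90.9% in degron libraries.

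Pfkl (chr10:77986947-78010083, minus strand), the liver-type phosphofructokinase of glycolysis, lies 31864 bases before Dnmt3l and had 659 and 588 counts in untreated and 410 and 298 in degron libraries. Its log2 fold change was -1.18 ± 0.08 (edgeR adjusted p = 4.77e-16). Icosl (chr10:78069302-78083913, plus strand), a ligand that costimulates T cells, starts 5680 bases after the end of Dnmt3l and went from 310 and 263 counts to 210 and 166. Its log2 fold change was -0.97 ± 0.10 (edgeR adjusted p = 4.29e-10). Pfkl, Aire, Dnmt3l and Icosl follow each other among the tested genes. The tested genes to either side, 1810043G02Rik (0.87 ± 0.19, edgeR adjusted p = 0.000265) and D10Jhu81e (0.52 ± 0.12, edgeR adjusted p = 0.000569), were higher. In a window of 500 kb to each side, chosen after the values were seen, 18 genes were tested, counting Dnmt3l, on which the window was centred. Of these 4 were lower, 10 higher and 4 not past the threshold, beside 19.8% lower and 20.3% higher over all genes. The 4 lower ones were Dnmt3l and the 3 genes just named. What the 4 neighbours share beyond position was not tested.

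**Figure D4:**
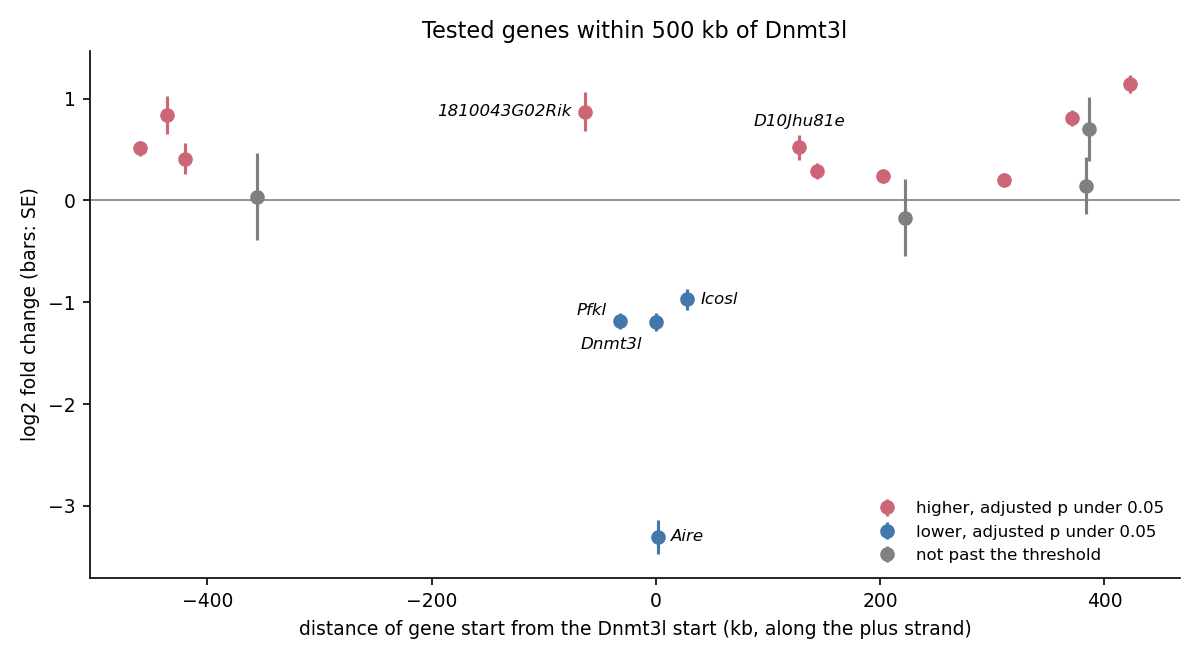
Log2 fold change with SE (y axis) of the 18 tested genes within 500 kb of Dnmt3l, by the distance of their start from that of Dnmt3l (x axis, kb). Pfkl (-1.18), Dnmt3l (-1.19), Aire (-3.30) and Icosl (-0.97) are the 4 lower genes and stand side by side, with higher genes on both sides.

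Around the other genes calls went in both directions. Within 100 kb of the 9 genes other than Dnmt3l 38 genes were tested, of which 10 were higher and 5 lower, 39.5% called against 40.2% of all genes. With the neighbours of Dnmt3l these were 12 higher and 8 lower of 43 tested (46.5%), with a median log2 fold change of -0.01. Around Uhrf1, which rose, Dpp9 (0.36), Fem1a (0.90) and Ticam1 (0.91) were higher and none of 6 tested genes was lower. The tested genes nearest to Uhrf1 on either side, Plin3 (-0.03) and Kdm4b (-0.06), did not pass. Around Dnmt3b, Mapre1 (0.40) was higher, and Dnmt3c, a rodent copy of Dnmt3b active in male germ cells, had 2, 4, 2 and 1 counts and was not tested. Around Tet1, Slc25a16 (0.42) and Dna2 (0.20) were higher and Stox1 (-0.32) lower. Around Dnmt1, Ppan (0.30) and Mrpl4 (0.60) were higher and S1pr2 (-0.19) lower. Mthfd2 (0.73) and Stambp (0.46) near Tet3 were higher, Dtnb (-0.24) and Efr3b (-0.73) near Dnmt3a and Gldc (-0.31) near Uhrf2 were lower, and none passed near Tet2 or Tdg. Ppan (0.08), Stox1 (-0.14), Gldc (-0.11) and Dtnb (0.12) did not pass with the length trend removed (edgeR adjusted p from 0.109 to 0.508), and DESeq2 lost the calls of Ppan, S1pr2, Efr3b, Stox1, Slc25a16, Dna2 and Stambp. In the leave-one-out runs the edgeR calls of Dna2, Stambp, S1pr2, Slc25a16, Efr3b and Ppan were lost. Without untreated replicate 1 the adjusted p was 0.245 for Dna2, 0.124 for Stambp, 0.0974 for S1pr2, 0.223 for Slc25a16 and 0.117 for Efr3b. Without untreated replicate 2 it was 0.101 for Stambp, 0.228 for S1pr2 and 0.0992 for Ppan. Without degron replicate 1 it was 0.0921 for Dna2 and 0.0879 for S1pr2, and without degron replicate 2 it was 0.107 for Dna2, 0.261 for Stambp and 0.251 for S1pr2.

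Other genes of the pathway were taken from 7 lists of partners, 78 genes in the table of which 75 were tested. Of these, 20 were higher and 19 lower, or 52.0% called against 40.2% of all genes, with a median of -0.04. With DESeq2 9 were higher and 10 lower, 27.9% of the 68 with an adjusted p against 28.6% of all genes, so that the partner genes were not called more often than genes at large in that test. With the length trend removed 15 were higher and 10 lower, 33.3% against 28.1%. Of the 39 edgeR calls, 20 were lost with DESeq2 and 19 with the length trend removed. Among 12 maintenance partners 4 were higher and 3 lower (median -0.03). The higher ones were Trim28 (0.40 ± 0.10), a corepressor that guards imprinted methylation, Pcna (0.39 ± 0.13), the replication clamp that binds DNMT1, Cdca7 (0.30 ± 0.10), a partner of the remodeller HELLS, and the histone methyltransferase gene Ehmt2 (0.23 ± 0.08). The lower ones were Hells itself (-0.33 ± 0.05), Cdca7l (-0.40 ± 0.12) and Zfp57 (-0.28 ± 0.07), the zinc finger protein that brings TRIM28 to imprinted loci. Pcna, Cdca7, Ehmt2 and Cdca7l did not pass with DESeq2 (adjusted p from 0.0962 to 0.132) or with the length trend removed (edgeR adjusted p from 0.204 to 0.341). Trim28 was at 0.24 without degron replicate 2 and at 0.56 without degron replicate 1, and passed in both. Usp7, which deubiquitinates UHRF1 and DNMT1 and was the most counted of the list, was at -0.06 ± 0.04 and did not pass, but at 0.19 with the length trend removed (edgeR adjusted p = 0.00069). Among 8 de novo partners Prdm14 (0.29 ± 0.09), a repressor of Dnmt3 genes in mouse embryonic stem cells, was higher. Setd2 (-0.22 ± 0.06), Ezh2 (-0.21 ± 0.06) and Kdm1a (-0.17 ± 0.06), which write or erase histone methylation, were lower, and the median was -0.09. None of these 4 passed with the length trend removed, where Prdm14 was at 0.18, Setd2 at 0.0043, Ezh2 at -0.03 and Kdm1a at -0.04 (edgeR adjusted p from 0.165 to 0.971), and Ezh2 alone passed with DESeq2. With the length trend removed the list instead gave 2 higher and 0 lower genes, neither of them among these 4. Both were slightly lower with TMM scaling and did not pass there. Among 10 genes of methyl-CpG readers and their relatives Mbd3 (0.31 ± 0.09) was higher, and Mbd5 (-0.62 ± 0.06) and Mbd2 (-0.32 ± 0.09) were lower (median -0.06). Mbd5 was at -0.20 with the length trend removed (edgeR adjusted p = 0.0114), and there Mbd2 at -0.17 and Mbd3 at 0.10 did not pass (edgeR adjusted p = 0.137 and 0.421). With DESeq2 Mbd3 did not pass either (adjusted p = 0.0708). Leaving out untreated replicate 1 ended the edgeR calls of Kdm1a (adjusted p = 0.0667), Prdm14 (0.0812), Zfp57 (0.122) and Pcna (0.127). Leaving out untreated replicate 2 ended those of Cdca7 (adjusted p = 0.0618), Mbd2 (0.0674), Ehmt2 (0.0754), Kdm1a (0.151) and Setd2 (0.221). Without degron replicate 1 the adjusted p was 0.065 for Prdm14, 0.0743 for Setd2 and 0.244 for Kdm1a, and the number of lower partner genes in all lists fell from 19 to 12. Without degron replicate 2 it was 0.0575 for Cdca7l, 0.0763 for Mbd2, 0.0778 for Pcna, 0.141 for Cdca7 and 0.207 for Ehmt2.

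Among 8 tested TET partners 4 were higher and 1 lower (median 0.10). That is 62.5% called in edgeR, against 40.2% of all genes (20.3% higher, 19.8% lower). With DESeq2 it was 12.5%, against 28.6% of all genes. Nanog (0.53 ± 0.06), a pluripotency factor that binds TET1 and is also on the stem cell marker list, was higher, as were Cxxc5 (0.48 ± 0.15), Hcfc1 (0.25 ± 0.06) and Idh2 (0.21 ± 0.06), and Ogt (-0.15 ± 0.06), the sugar transferase that binds TET enzymes, was lower. Among 15 base excision repair genes 5 were higher and 2 lower (median 0.17), 46.7% called in edgeR and 26.7% with DESeq2. The uracil glycosylase gene Ung (0.59 ± 0.08), the abasic endonuclease gene Apex1 (0.57 ± 0.12), the scaffold gene Xrcc1 (0.49 ± 0.06), Mutyh (0.34 ± 0.12) and Fen1 (0.28 ± 0.09) were higher, and the glycosylase genes Neil3 (-0.79 ± 0.13) and Neil2 (-0.51 ± 0.20) were lower. Apex1 was at 0.35 without degron replicate 2 and still passed. Parp1, the most counted of that list, was at 0.03 ± 0.05 and did not pass. Among 11 tested genes of the methyl donor cycle, which makes and recycles S-adenosylmethionine, 5 were higher and 3 lower (median 0.12). For this list 72.7% were called in edgeR and 54.5% with DESeq2. Shmt2 (0.46 ± 0.08), Ahcy (0.45 ± 0.07), Shmt1 (0.36 ± 0.07) and Mtrr (0.21 ± 0.08) were among the higher ones, and Ahcyl2 (-0.29 ± 0.06), Adk (-0.27 ± 0.07) and Mtr (-0.16 ± 0.07) were lower. Mat2a, the synthetase gene, was at 0.11 ± 0.07 and did not pass. Adk (0.16), Mtr (0.04) and Ahcyl2 (0.01) had the opposite sign with the length trend removed, and Mtrr, Ogt, Idh2, Mutyh and Fen1 did not pass there (edgeR adjusted p from 0.065 to 0.656). With DESeq2 the calls of Ogt, Cxxc5, Idh2, Hcfc1, Neil2, Mutyh, Fen1, Mtr and Mtrr were lost. In the leave-one-out runs of the TET, repair and methyl donor lists the edgeR adjusted p of Mtrr was 0.069 to 0.134 without any 1 of the 4 libraries. Without untreated replicate 1 it was 0.0694 for Ogt, 0.209 for Fen1 and 0.535 for Neil2. Without untreated replicate 2 it was 0.0588 for Hcfc1, 0.0737 for Cxxc5, 0.234 for Mutyh, 0.242 for Ogt and 0.337 for Mtr. Without degron replicate 1 it was 0.0855 for Hcfc1, 0.126 for Cxxc5, 0.141 for Mtr and 0.365 for Ogt. Without degron replicate 2 it was 0.0785 for Fen1, 0.115 for Mutyh, 0.139 for Mtr and 0.168 for Neil2.

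The list with the lowest median was that of germline genes known to be silenced by DNA methylation. Of 11 tested genes 5 were lower (45.5%, against 19.8% of all genes) and none higher, with a median of -0.45 and, with the length trend removed, again 5 lower, with Tex19.1 in place of Ddx4, and a median of -0.41, against 10.0% of all genes. Sycp1, a component of the meiotic synaptonemal complex, had 294 and 277 counts in untreated and 197 and 182 in degron libraries, a log2 fold change of -0.95 ± 0.11. Piwil2, which works with small RNAs in germ cells, went from 174 and 179 counts to 165 and 141 in the deeper degron libraries (-0.57 ± 0.12). Dazl (-0.56 ± 0.19), Ddx4 (-0.45 ± 0.19) and Hormad1 (-0.42 ± 0.13) were lower as well, while Tex19.1, the most counted, was at -0.06 ± 0.08 and did not pass with TMM scaling. With DESeq2 Sycp1 and Piwil2 passed, 2 of the 6 with an adjusted p (33.3%, against 13.9% of all genes). In the leave-one-out runs of edgeR the adjusted p without untreated replicate 1 was 0.438 for Dazl and 0.398 for Ddx4, without untreated replicate 2 it was 0.205 for Hormad1, and without degron replicate 1 it was 0.0531 for Dazl, 0.352 for Ddx4 and 0.109 for Hormad1. DNA methylation itself was not measured in these libraries.

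**Figure D5:**
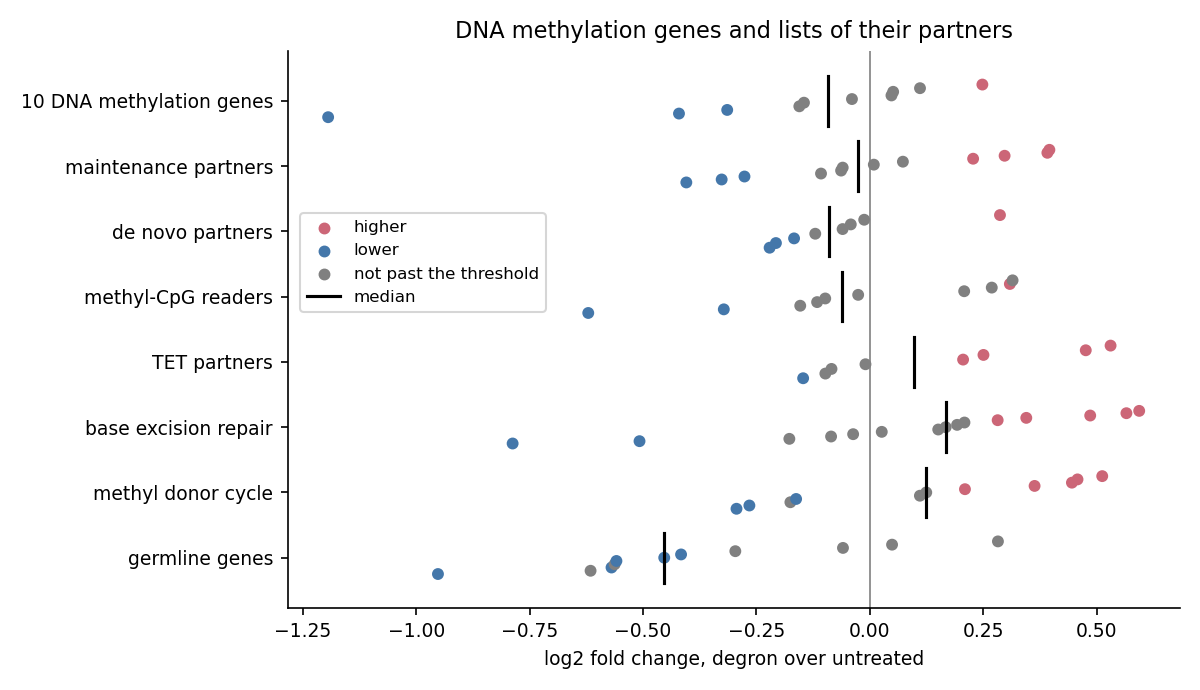
Log2 fold change of degron over untreated libraries (x axis) for the 10 DNA methylation genes and for each tested gene of the 7 partner lists, coloured by call, with the median of each list as a line. The medians run from -0.45 for the germline genes to 0.17 for base excision repair, and Dnmt3l at -1.19 is the lowest point.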

How the data were processed

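Chromatin RNA of mESCs was sequenced in 2 untreated and 2 ZBTB21_degron_6h libraries, grouped by their labels. The deposited values were raw counts per gene, made by the authors from uniquely mapped, deduplicated reads over each gene body from 300 bases after the start to the end, introns included. Per the labels, cutadapt 2.6, STAR 2.7.6a and featureCounts 1.6.3 and the builds mm10 and dm6 were used, while the methods name another mapper. The annotation release and strand setting of the ChAR-seq counting are not given in the sources used here, and the fly spike-in reads that the study used for scaling are not in the gene table and were not used here, so a change shared by all genes cannot be seen. Identifiers were matched to GENCODE M21, which held 36770 of 36918.

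Genes passing filterByExpr (minimum count 10, minimum total 15) were fitted in edgeR 4.0.16 (R 4.3.3) with TMM scaling and robust quasi-likelihood dispersion, two-sided, with Benjamini-Hochberg adjustment over all tested genes at 0.05. SE and 95% intervals came from that fit, and CPM used TMM-scaled library sizes. Alternatives were DESeq2 1.42.0, limma voom 3.58.1, other scalings and filters, protein-coding genes alone, a loess curve (span 0.3) on gene length, a replicate block and each library left out. With 1 library left in a group, its spread was taken from the other group. The scripts were tested on simulated data. The members, lists and the length adjustment were chosen with earlier results of these data known. All 10 members were named, and from each list the genes past the threshold and at most 3 of the most counted others, except that some list genes are not reported here. The 500 kb window, the motifs and the pseudogenes were added after values were seen. Promoter sequences came from RefSeq (GRCm38.p6).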

Additional observations from a re-analysis of the deposited data

How the results depend on the processing

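Over 14 alternatives, the 10 genes gave 132 values with the sign and the side of the threshold reported, 3 that newly passed, 1 that no longer passed and 4 of the other sign. Dnmt3l (-1.25 to -1.14), Dnmt3b (-0.47 to -0.35) and Uhrf1 (0.19 to 0.30) passed in all. With the length trend removed, the 10 genes gave 4 higher instead of 1, and Tet1 lost its call. Of the 10 genes, the sign turned for Tet2 (0.18), Tet3 (0.0885) and Uhrf2 (0.0246). Of the called partners and neighbours it turned for Setd2 (0.0043), Ahcyl2 (0.0133), Mtr (0.04), Adk (0.16) and Dtnb (0.12). Among partner genes not called with TMM scaling, several newly passed with the other sign, Usp7 (0.19) among them. Tet2 newly passed there as well, but is counted above under the values of the other sign. Without degron replicate 2 Dnmt3a was at -0.003. The cause of these turns was not tested. DESeq2 gave 9 higher and 10 lower partner genes (20 and 19 in edgeR) and 1540 higher and 1456 lower genes in all (2921 and 2845), and the length adjustment gave 10 lower partner genes and 1436 lower genes in all. Leaving out 1 library gave 14 to 18 higher and 12 to 15 lower partner genes, and 2304 to 2505 higher and 2083 to 2367 lower genes in all. Same-numbered deviations had a correlation of 0.0239 across genes. With 2 pairs and counting error in each deviation, this cannot show whether the replicate numbers pair the libraries. The replicate block gave the same counts for the 10 genes, 1 higher and 3 lower, with 3119 higher and 3055 lower genes in all. With 2 libraries a group and Tdg at 126 to 219 counts, small changes were not detectable.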
